A study of Mus musculus with 5 samples.

Results

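The replication-dependent histone genes encode the bulk of the H1, H2A, H2B, H3 and H4 proteins, and they were examined here for H3K27ac peaks in stem and progenitor cells of mouse bone marrow. Members were the GRCm38 protein-coding genes whose current or older symbol carries the prefix of a clustered histone gene (Hist1h, Hist2h, Hist3h, Hist4h, or the newer H1f, H2ac, H2bc, H3c and H4c). The rule took 71 of 21887 protein-coding genes, 67 by the current symbol and 4 by an older one: H4f16 (Hist4h4), H2bu2 (Hist3h2ba), H2aw (Hist3h2a) and H4bc24 (Hist1h2br, an H2B gene by its older symbol). The prefixes also took 7 genes that are not replication-dependent by textbook knowledge. These were the replacement or oocyte and testis linker histones H1f0, H1f10, H1f7, H1f8 and H1f6 and the testis genes H2ac1 and H2bc1. The remaining 64 members were replication-dependent.

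The study profiled H3K27ac by ChIPmentation, in which immunoprecipitated chromatin is tagged with sequencing adapters by the Tn5 transposase. The cells were CD45.2+ Lineage- Sca1+ Kit+ bone marrow cells, labelled HSC/MPP (haematopoietic stem cells and multipotent progenitors), and in all 4 H3K27ac libraries and the 1 input library the genotype was Mll3/4 deleted. No undeleted cells were among the samples, and the age of the mice, the alleles, the Cre driver and the deletion time were not given in the sources used here. The values come from 1 peak list of 22948 peaks for the whole series, so that no peak has a value per library, the depth of the libraries is unknown, and no difference could be tested against replicates. At the genes of the sorting markers, a peak lay within 1 kb of an end of Ptprc (CD45, signal value 10.8) and Kit (5.66) but not of Ly6a (Sca1). Kmt2c and Kmt2d, which encode MLL3 and MLL4, also had peaks at an end (signal values 5.17 and 5.60), which does not check the deletion.

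Replication-dependent histone genes are small, mostly without introns, and lie in clusters that gather at the histone locus body, a nuclear structure organised by NPAT. They are switched on together as cells enter S phase, and their transcripts end in a stem-loop bound by SLBP instead of a poly(A) tail. H3K27ac, the acetylation of lysine 27 on histone H3, marks active promoters and enhancers, often on the nucleosomes flanking the start of transcription.

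The promoters of the members with the strongest peak of each class, among those with an entry in the promoter table, are shown first, because the classes are known to differ in their promoter elements. Each run holds the 250 bases before the annotated start, 5′ to 3′ on the gene's strand, from RefSeq (GRCm38.p6). Capitals mark every match, on either strand, to the CCAAT box (CCAAT), the TATA box (TATAAA), the octamer bound by the Oct factors (ATTTGCAT), the AC box of H1 promoters (AAACACA), the core of the element bound by HINFP at H4 genes (GGTCCG) and the E2F sites TTTCGCGC and TTTGGCGC. For H2A the strongest peak is shared by H2ac20 and H2ac21, and H2ac20 is shown as the first by symbol, although the summit lies within H2ac21. H2bc6 has 2 annotated starts, each under a peak of its own (signal values 11.9 and 11.5), and both are given. The H4 gene with the strongest peak, H4c14, has no entry in that table, and the class is shown by H4c8, whose GGTCCG begins 5 bases before the start and runs across it, and by H4f16, in which it lies wholly before the start. H4f16 was added after its values were seen. H1f10 is the first by symbol of the members without a peak.
H1f5 (chr13:21780626-21780875, minus strand): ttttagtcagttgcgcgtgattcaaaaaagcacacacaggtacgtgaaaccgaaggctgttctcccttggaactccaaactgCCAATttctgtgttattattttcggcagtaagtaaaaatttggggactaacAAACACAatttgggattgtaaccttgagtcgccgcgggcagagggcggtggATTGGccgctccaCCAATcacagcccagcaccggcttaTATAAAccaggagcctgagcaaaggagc
H2ac20 (chr3:96220881-96221130, minus strand): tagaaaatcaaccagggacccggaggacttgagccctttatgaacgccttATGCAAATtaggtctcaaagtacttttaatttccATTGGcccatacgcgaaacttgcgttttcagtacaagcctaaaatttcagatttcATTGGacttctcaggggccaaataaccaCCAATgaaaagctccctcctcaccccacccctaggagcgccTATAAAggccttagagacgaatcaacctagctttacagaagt
H2bc6 (chr13:23621095-23621344, minus strand): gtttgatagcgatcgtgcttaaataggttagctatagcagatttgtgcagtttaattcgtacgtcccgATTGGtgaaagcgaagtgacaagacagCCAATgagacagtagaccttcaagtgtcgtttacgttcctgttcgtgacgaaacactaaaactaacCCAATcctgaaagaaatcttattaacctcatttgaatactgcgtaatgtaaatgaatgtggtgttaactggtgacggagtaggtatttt
H2bc6 (chr13:23585971-23586220, minus strand): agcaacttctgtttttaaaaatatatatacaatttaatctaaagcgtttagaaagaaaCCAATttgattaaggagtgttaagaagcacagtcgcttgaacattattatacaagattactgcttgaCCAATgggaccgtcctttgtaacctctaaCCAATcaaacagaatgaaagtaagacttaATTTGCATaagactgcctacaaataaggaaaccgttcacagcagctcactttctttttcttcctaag
H3c6 (chr13:23562386-23562635, minus strand): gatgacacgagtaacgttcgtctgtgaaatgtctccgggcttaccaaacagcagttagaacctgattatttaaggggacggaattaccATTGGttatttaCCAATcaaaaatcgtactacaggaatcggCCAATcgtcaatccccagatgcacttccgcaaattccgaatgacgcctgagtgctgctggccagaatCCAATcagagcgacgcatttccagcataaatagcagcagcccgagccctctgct
H4c8 (chr13:23530794-23531043, plus strand): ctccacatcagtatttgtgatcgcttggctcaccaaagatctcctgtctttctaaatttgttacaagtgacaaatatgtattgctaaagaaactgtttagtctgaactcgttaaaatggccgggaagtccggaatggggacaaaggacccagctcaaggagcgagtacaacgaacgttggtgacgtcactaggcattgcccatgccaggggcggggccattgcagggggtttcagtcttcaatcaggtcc
H4f16 (chr6:136804432-136804681, minus strand): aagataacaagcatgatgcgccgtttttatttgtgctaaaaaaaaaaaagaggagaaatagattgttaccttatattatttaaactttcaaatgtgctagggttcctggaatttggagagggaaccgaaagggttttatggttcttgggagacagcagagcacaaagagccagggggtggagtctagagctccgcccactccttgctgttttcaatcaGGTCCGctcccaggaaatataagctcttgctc
H1f10 (chr6:87981483-87981732, minus strand): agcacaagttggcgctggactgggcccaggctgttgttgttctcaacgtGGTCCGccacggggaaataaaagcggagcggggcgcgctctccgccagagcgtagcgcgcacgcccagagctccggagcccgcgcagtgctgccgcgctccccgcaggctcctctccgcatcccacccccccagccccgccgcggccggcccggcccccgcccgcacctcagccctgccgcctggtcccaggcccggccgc

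An H3K27ac peak overlapped 1 kb either side of an end of 58 of the 71 members (81.7%, Wilson 95% interval 71.2 to 89.0%), beside 7929 of 21887 protein-coding genes (36.2%). The interval covers counting error only, and members that share a peak are not independent. Of the 64 replication-dependent members, 57 had a peak (89.1%). With peaks at a −log10 q of at least 5 alone, 44 members (62.0%) kept one, beside 24% of all protein-coding genes. H3c14 was the only member whose strongest peak had a q-value above 0.05 (−log10 q 1.22, signal value 2.63). The next weakest, shared by H2ac12 and H2bc12, had a q-value under 0.05 (−log10 q 1.67, signal value 2.84).

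Between them the 58 members lay at only 49 distinct peaks, since 37 of them shared a peak with another member. A single member lay under 30 of the peaks, 2 members under 13, 3 members under 5 and 4 members under 1. That last peak, chr13:23570344-23574482, covered H2ac8, H2bc8 and H2bc7 whole and the start of H2ac7 (width 4139 bp, signal value 5.51), which form a pair of head-to-head H2A and H2B gene pairs. In the other direction, 15 members lay at more than 1 peak, as at H2ac22 and H2bc22 with 3 peaks of signal values 3.27, 3.12 and 2.38. One peak, that of H2aw on chromosome 11, was also at the end of another coding gene, Trim17.

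The signal value is the enrichment of a peak over its background as the authors' peak caller wrote it, and here it is used only to rank peaks within the list. The peaks at members had a median signal value of 5.05 and a median width of 1044 bp, beside 4.25 and 974 bp for the 8341 peaks at a protein-coding gene end and 3.27 and 854 bp for all peaks. A signal value of 10 or more was reached by 11 of the 49 (22.4%), beside 4.48% of the peaks at coding gene ends. A q-value above 0.05 was found for 2 of the 49 (4.08%), beside 7.36% at coding gene ends. Taking the strongest peak of each gene, the median over the 58 members was 5.98 (quartiles 4.33 and 10.0, range 2.63 to 13.4). Over all 7929 coding genes with a peak it was 4.71 (quartiles 3.52 and 6.55).

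**Figure D1:**
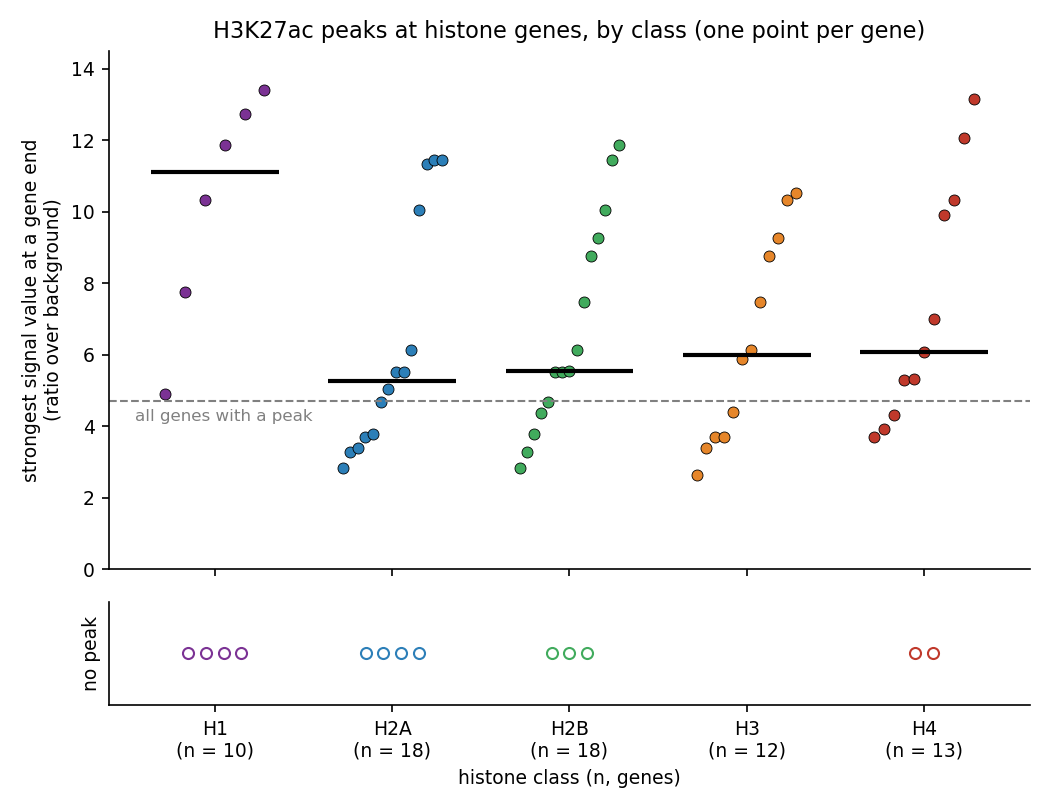
The strongest signal value (ratio over background, linear axis) at each member, by histone class, with one point per gene; bars are class medians, the dashed line is the median of all coding genes with a peak (4.71), and open circles below are the 13 members without a peak. H1 genes sit highest (median 11.1 over 6 genes), and each of the other classes spreads from under 4 to over 10, with several points repeated because genes share a peak.

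The H1 genes, which encode the linker histones that bind DNA between nucleosomes, had the highest median of the classes. All 5 replication-dependent H1 genes had a peak, with a median strongest signal value of 11.9. The strongest of any member was at H1f5 (chr13:21778265-21781053, signal value 13.4, −log10 q 56.5, rank 93 of 22948), with its summit 717 bp beyond the gene's nearer end. H1f2 followed at 12.7, H1f4 at 11.9 and H1f1 at 10.3, and H1f3 was the lowest of the class at 4.90. The value at H1f4 belongs to a peak shared with H2bc6, and that at H1f1 to a peak shared with H4c1 and H3c1. The summit of the latter lies 1757 bp from H1f1, and the peak over H1f1 itself had a signal value of 3.76. Counting only peaks with a summit within 1 kb of an end, the median of these 5 genes was again 11.9, which is the value of H1f4. The summit of the peak shared by H1f4 and H2bc6 lies 833 bp from H1f4 and within H2bc6, though the peak covers 98.3% of H1f4, and the other peak of H1f4 had 3.09. With 3.09 for H1f4 and 3.76 for H1f1, the middle of the 5 values would be the 4.90 of H1f3. The median of all 6 H1 genes with a peak, H1f0 included, went from 11.1 to 9.81, beside the medians of the other classes by the same count (4.86 for H2A, 5.51 for H2B, 5.998 for H3 and 6.09 for H4).

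Among the other H1 genes of the prefix, H1f0, the replacement linker histone of resting and differentiated cells, had 2 peaks (signal values 7.74 and 2.69). H1f10, another replacement linker histone, the oocyte gene H1f8 and the testis genes H1f6 and H1f7 had none. H1f0 was the only one of the 7 members outside the replication-dependent set with a peak.

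All 12 genes for H3, the core histone whose lysine 27 is the residue measured here, had a peak, with a median strongest signal value of 5.998. The highest was at H3c6 (10.5), followed by H3c1 (10.3, shared with H4c1 and H1f1), H3c3 (9.28, shared with H2bc3) and H3c7 (8.75, shared with H2bc9). The lowest was H3c14 on chromosome 3 at 2.63. The gene bodies of H3c3 and H3c2 were not covered by any peak, and they counted only through a peak within 1 kb that also lay at H2bc3 or H2ac4.

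H4, the partner of H3 in the nucleosome core, had peaks at 11 of 13 genes with a median strongest signal value of 6.09. H4c14 on chromosome 3 was highest at 13.2, the peak next to that of H1f5 in strength among all members. H4c8 had 12.1, H4c1 10.3 and H4f16, the only H4 member on chromosome 6, 9.92. The lowest with a peak were H4c6 (3.70) and H4c11 (3.92). H4c2 and H4c18 had none.

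The H2A and H2B genes, whose products pair as dimers on the nucleosome, had the lowest medians. A peak lay at 14 of 18 H2A genes (median 5.28, range 2.84 to 11.4) and at 15 of 18 H2B genes (median 5.54, range 2.84 to 11.9). The strongest H2A peak, on chromosome 3, was also the widest at any member (4589 bp, signal value 11.4) and covered H2ac21 and H2ac20 whole and 79.6% of H2bc21. The other H2A genes above 10 were H2aw on chromosome 11 (11.3) and H2ac6, which shared its peak with the H2B gene H2bc4 (10.04). The strongest H2B peak was that of H2bc6. Its annotated gene is 37455 bp long, with a peak near each end, and the one next to H1f4 is the peak that both genes share. At the low end H2ac12 and H2bc12 had 2.84, and H2ac22 and H2bc22 had 3.27.

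**Figure D2:**
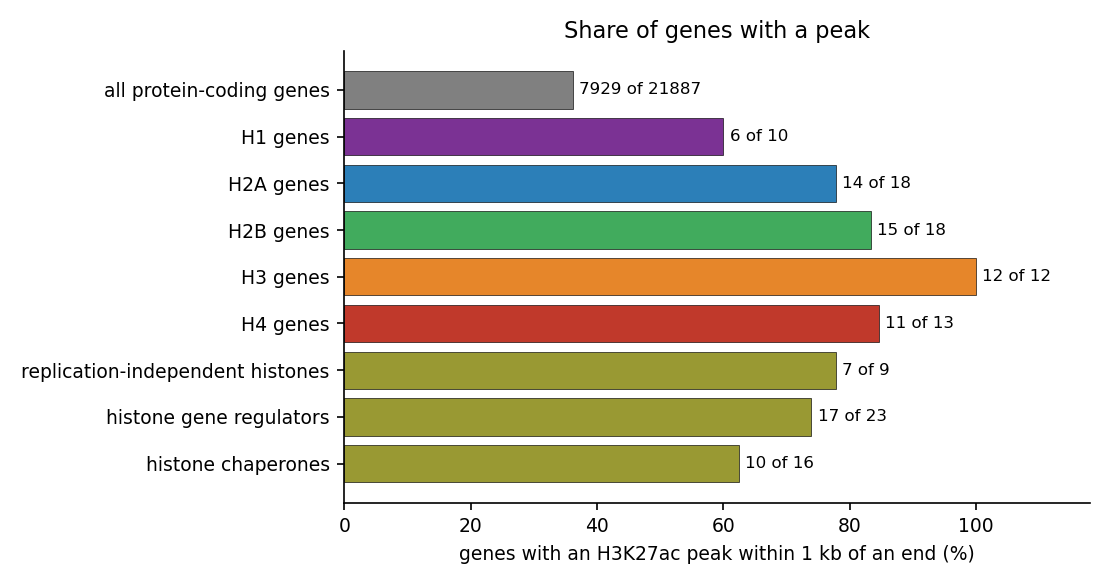
Share of genes (%) with an H3K27ac peak within 1 kb of an end, from 0, with the counts printed beside the bars, for all coding genes, the 5 histone classes and 3 lists of histone-related genes. Every bar lies above that of all coding genes (36.2%), from 60% for H1, which holds the germ-line linker histones, to all 12 of the H3 genes.

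On chromosome 13 the 54 members formed 2 blocks more than 250 kb apart, and 45 of them had a peak (38 distinct peaks, median strongest signal value 5.51). The first block (chr13:21714711-22044658, 330 kb) held 23 members, of which 18 had a peak with a median strongest signal value of 4.53. The second (chr13:23530044-23935913, 406 kb) held 31, of which 27 had a peak with a median of 8.75. Of the 16 members with a strongest signal value of 10 or more, 10 lay in the second block and 1, H1f5, in the first. The 10 are not independent, since H2bc6 and H1f4 share a peak, as do H2ac6 and H2bc4, and H4c1, H3c1 and H1f1. In the first block only H2bc13, H2ac13 and H3c10, under a peak of 6.12, otherwise passed 6. Counting only summits within 1 kb, the medians were 4.37 and 7.01 in the same order. Peaks occupied 5.60% of the first block and 11.1% of the second, beside 1.01% of the genome. The blocks are 1 stretch of DNA each, and their difference was not tested.

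On chromosome 3 the 10 members lay within 52.3 kb (chr3:96218885-96271192), and 9 had a peak. They lay at 6 distinct peaks that occupied 25.4% of the block, and the median strongest signal value was 7.47. H4c14 was highest (13.2), then the peak of H2ac21, H2ac20 and H2bc21 (11.4) and that of H3c13 and H2bc18 (7.47). H2ac18 (5.05), H3c15 (3.70) and H3c14 (2.63) lay lower, and H2ac19 had none. On chromosome 11 the 2 members, H2aw and H2bu2, both had a peak (11.3 and 5.54). Of the 5 members elsewhere, H1f0 and H4f16 had one.

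**Figure D3:**
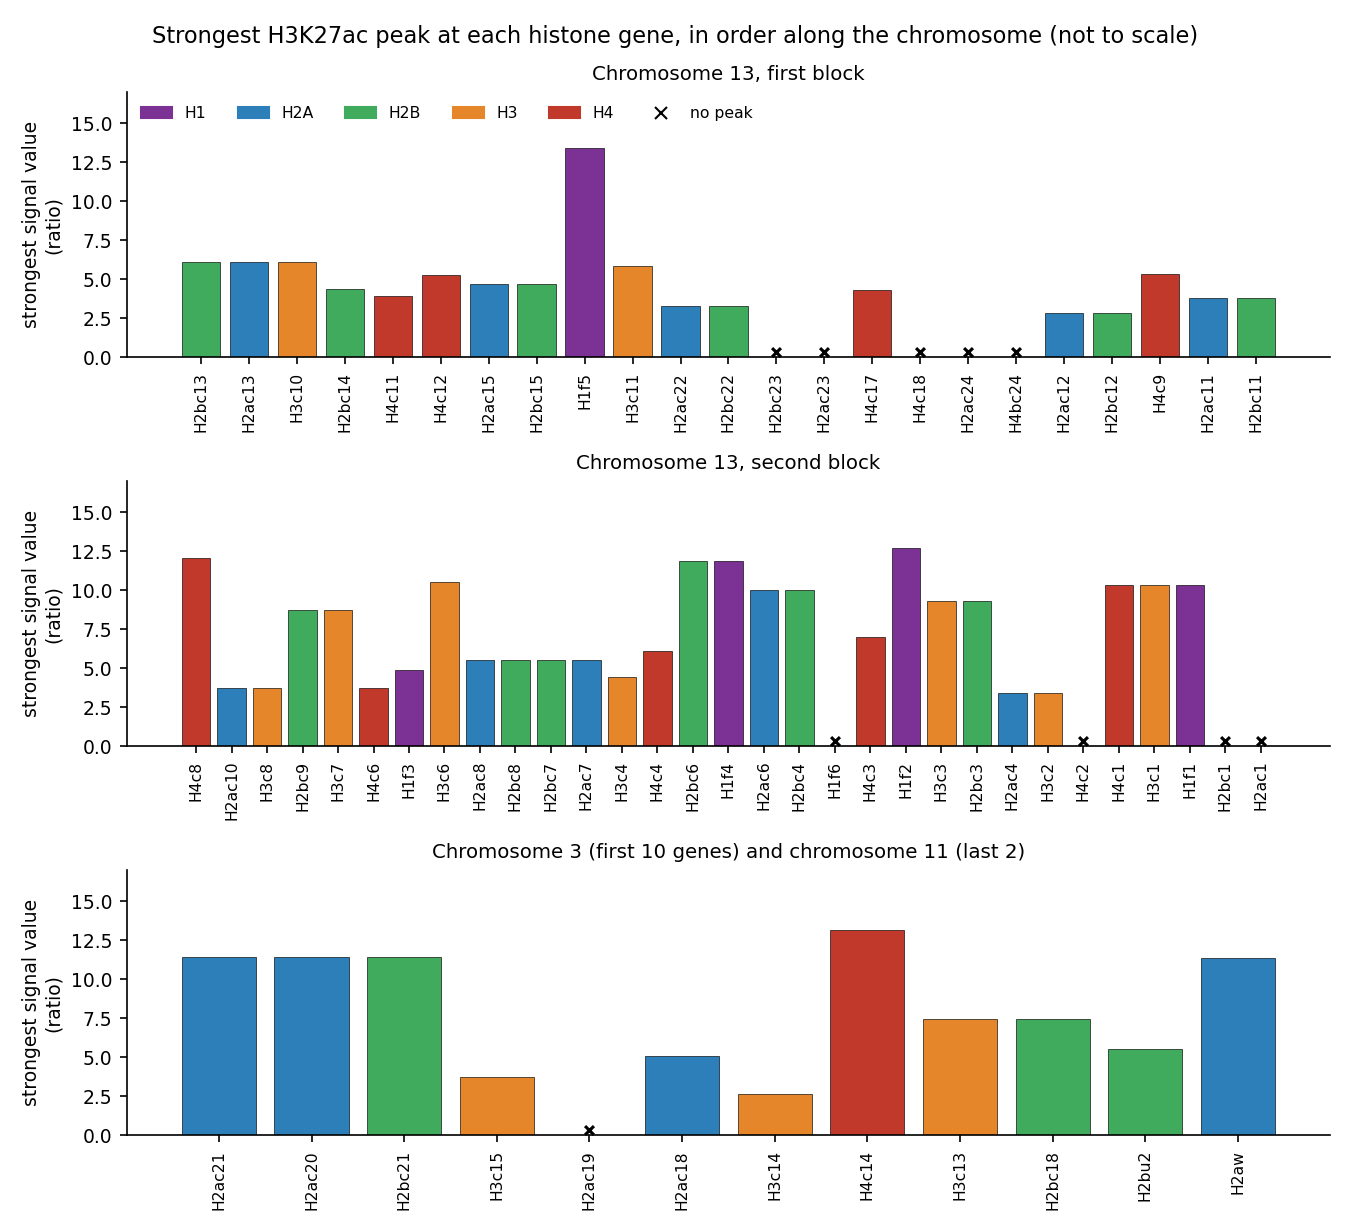
The strongest signal value (ratio over background) at each member in gene order, not to scale, for the 2 chromosome 13 blocks (upper and middle) and for chromosomes 3 and 11 (lower); colours give the class, equal neighbouring bars are 1 shared peak, and crosses are members without a peak. H1f5 stands alone above 10 in the first chromosome 13 block, where a run from H2bc23 to H4bc24 lacks peaks except at H4c17, and 10 members reach 10 in the second.

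The coding genes that lie among the members on chromosome 13 had peaks of middle strength or none. In the first chromosome 13 block Zfp184, a zinc finger gene, had a signal value of 4.77 and Pom121l2 and Prss16 had no peak. In the second, Hfe, the iron regulator, had 5.48, the phosphate transporter genes Slc17a1 and Slc17a4 had 4.80, and Trim38, Slc17a2 and Slc17a3 had none. In all, 8 peaks in these blocks were at no member. The strongest of them, chr13:21974315-21975159, had a signal value of 13.6, above that of H1f5. Its summit lay 255 bp from the tRNA gene n-TMcat8, which the peak overlapped, and 6404 bp from the nearest coding gene end. The summit of a weaker one (chr13:22020132-22020625, signal value 3.27) lay 702 bp from the tRNA gene n-TRacg1.

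Of the 13 members without a peak, 7 were replication-dependent: H2bc23, H2ac23, H4c18, H2ac24 and H4bc24 in the first chromosome 13 block, H4c2 in the second and H2ac19 on chromosome 3. The others were H1f6, H2bc1, H2ac1, H1f7, H1f10 and H1f8. Several members have near-identical copies, and a read that lies wholly in copied sequence cannot be assigned uniquely. Of the 66 members with a promoter in the RefSeq table, 10 had over 50% of the 36-base stretches of the 300-base promoter window in another promoter of the table. These were H3c15, H2ac19, H2ac18, H3c14, H2bc23, H2ac23, H4c17, H4c18, H2ac24 and H4bc24, with H2bc23 and H4bc24 the same in 300 of 300 bases. Of these 10, 4 had a peak (H3c15, H2ac18, H3c14 and H4c17, signal values 2.63 to 5.05) and 6 had none. Of the other 56, 49 had a peak, and H4c2 was the only replication-dependent one without. How reads with several equal matches were treated is not given in the sources used here, and the part of copied sequence in the missing peaks was not tested.

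With the strand from the promoter table, the place of the peaks on the genes could be read for 66 members. A peak covered the annotated start of 32 of them (48.5%), beside 19.8% of 17492 protein-coding genes. Among those with a peak at an end, the start was covered in 32 of 53 (60.4%), beside 3184 of 6499 coding genes (49.0%). Coverage over the 52 members with a peak and a single start was 65.4% at 600 bp before the start, 59.6% at the start and 82.7% at 600 bp after it. The same positions gave 41.4%, 45.5% and 71.4% over 5275 coding genes. At 200 bp after the start the order was the other way, with 61.5% of the members and 73.1% of the coding genes. Coverage was highest 624 bp after the start for the members (84.6%) and 343 bp after it for the coding genes (78.1%). Of these 52 members 42 are shorter than 600 bp, so that at most of them this distance lies past the far end. Among all 58 members with a peak, the gene body was covered whole at 25 and not at all at 6, which counted only through a peak beside the gene.

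**Figure D4:**
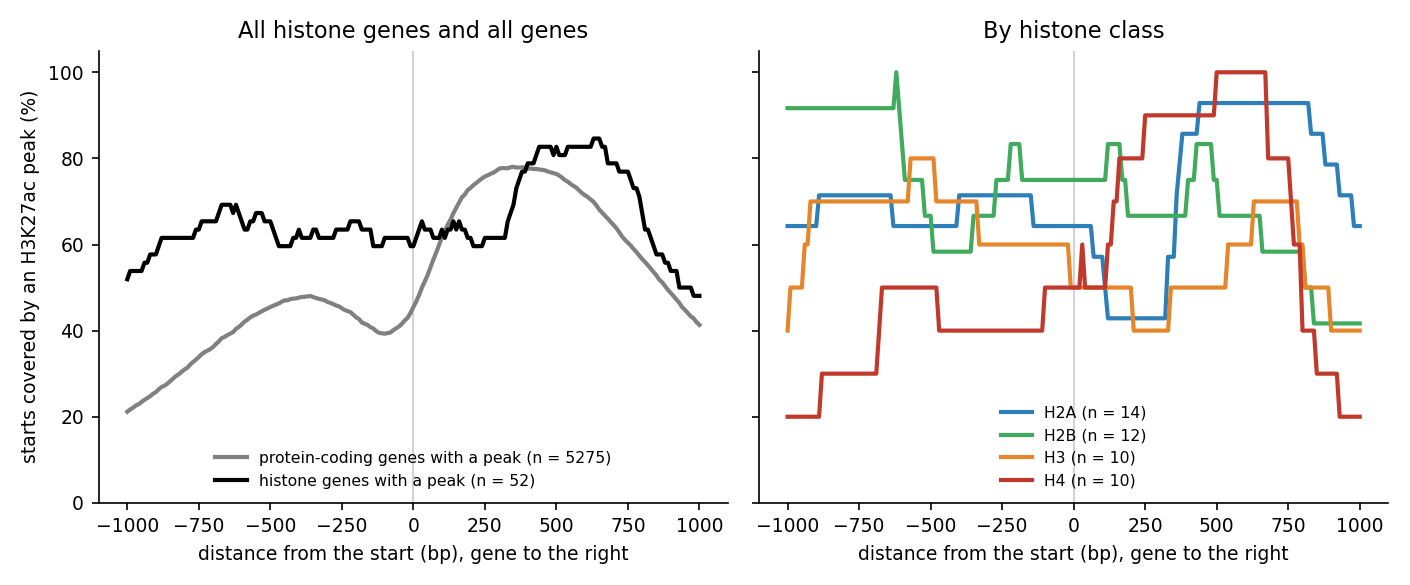
Share of annotated starts (%) whose surroundings are covered by an H3K27ac peak, against distance from the start in bp, gene to the right. Left, 52 members with a peak against 5275 coding genes with one, and right, the H2A, H2B, H3 and H4 genes among these 52 members. Coding genes dip before the start and peak at 343 bp, while members stay near 60% through the start and peak at 624 bp; H4 genes rise from 50% at the start to 100% at 500 bp.

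The place of the summit, the base of highest enrichment, was read by class, and no difference between classes was tested. Counted were only genes with a peak, a single start in the table and a summit within 1 kb of that start. At 8 of 10 such H4 genes the nearest summit was over 150 bp downstream (median 387 bp), beside 66.0% of coding genes (median 274 bp). All 10 of these H4 genes were covered 500 bp after the start, while H4c2 and H4c18 had no peak and were not counted. At 6 of the 10 the nearest summit lay within 50 bp of the far end of the gene, at H4c12, H4c3, H4c4, H4c6, H4c11 and H4c9. These 6 genes are only 375 to 423 bp long, and no such count was made over all coding genes. Among the genes so counted, the nearest summit was also within 50 bp of the far end at 3 of 14 H2A, 2 of 10 H3, 1 of 11 H2B and 0 of 4 H1 genes. At H2B genes the nearest summit was upstream of the start in 6 of 11 (median −235 bp), beside 5 of 10 H3, 6 of 14 H2A, 2 of 10 H4 and 2 of 4 H1 genes and 1359 of 4739 coding genes. Since the next gene is often within 1 kb, an upstream summit of 1 member can be a downstream summit of its neighbour.

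Head-to-head pairs, in which an H2A and an H2B gene start back to back and share a promoter, were found 10 times with both starts in the table, 164 to 281 bp apart. In 7 of the 10 pairs both genes lay at the same peak. The stretch between the starts was covered whole in 5 pairs (H2bc13/H2ac13, H2ac15/H2bc15, H2ac22/H2bc22, H2ac8/H2bc8 and H2bc7/H2ac7) and not at all in the other 5. Of the latter, H2ac12/H2bc12 and H2ac11/H2bc11 shared a peak on the H2A side only, and H2bc23/H2ac23, H2ac24/H4bc24 and H2bc1/H2ac1 had none. A summit between the starts was found in 1 pair, H2ac22/H2bc22, and in the other pairs with a shared peak the summits lay over a gene or past it.

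The classes differed in the promoter letters they held. Over 300-base windows from 250 bases before to 50 after the start, CCAAT was matched on either strand in all 18 H2A, 17 H2B and 10 H3 promoters, in 7 of 10 H1 and 3 of 12 H4 promoters, and in 38.2% of 21263 protein-coding promoters. GGTCCG was matched in 11 of 12 H4 promoters, in 1 of 10 H1, 1 of 17 H2B, 1 of 10 H3 and 0 of 18 H2A promoters, and in 10.5% of all coding promoters. The octamer ATTTGCAT was matched in 7 of 18 H2A and 7 of 17 H2B promoters, in no H1, H3 or H4 promoter, and in 1.66% of all. AAACACA was matched in 5 of 10 H1, 2 of 18 H2A and 2 of 17 H2B promoters, in no H3 or H4 promoter, and in 6.15% of all. TTTCGCGC was matched in 5 H2A and 4 H2B promoters, in no H1, H3 or H4 promoter, and in 0.451% of all, while TTTGGCGC was matched in no member and 0.635% of all. Before the start alone, GGTCCG was matched in 9 of 12 H4 promoters (8.41% of all) and CCAAT in 8 of 10 H3 promoters (35.4% of all). TTTCGCGC was then matched in 3 H2A promoters (0.362% of all), and the CCAAT counts of the other classes did not change. The windows of head-to-head genes overlap, so that H2A and H2B share many of these matches. A match is a description of letters and not a bound site.

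**Figure D5:**
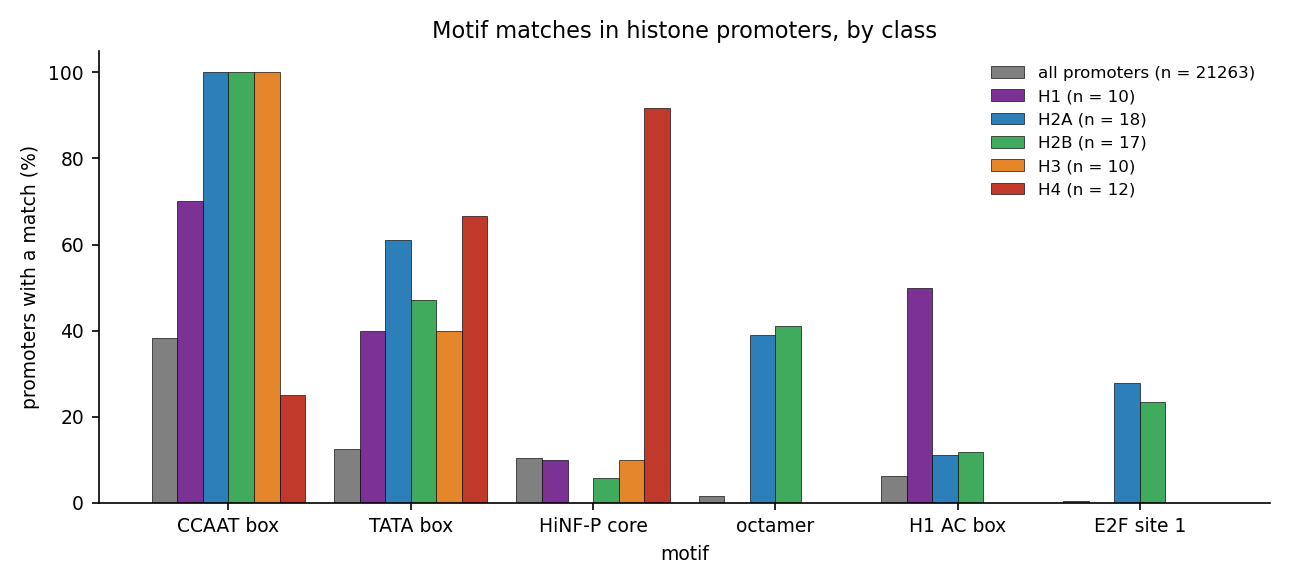
Share of promoters (%) with a match on either strand to each of 6 motifs in the window from 250 bases before to 50 after the start, for all coding promoters (grey) and the 5 histone classes (n in the legend). CCAAT reaches 100% in H2A, H2B and H3, GGTCCG (HiNF-P core) 91.7% in H4, and the octamer appears among the classes only in H2A and H2B.

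In 6 of the H4 promoters GGTCCG began 46 or 47 bases before the start. The 60 bases before the start of these are shown to compare its place, in order of their strongest signal value, with GGTCCG alone in capitals.
H4c3 (chr13:23698459-23698518, minus strand): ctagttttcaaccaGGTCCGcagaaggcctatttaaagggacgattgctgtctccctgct
H4c4 (chr13:23581508-23581567, plus strand): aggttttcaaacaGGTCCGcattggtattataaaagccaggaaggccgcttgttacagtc
H4c9 (chr13:22041363-22041422, minus strand): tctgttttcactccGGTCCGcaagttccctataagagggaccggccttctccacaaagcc
H4c17 (chr13:21811686-21811745, plus strand): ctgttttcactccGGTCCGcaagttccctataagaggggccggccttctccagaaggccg
H4c6 (chr13:23551669-23551728, minus strand): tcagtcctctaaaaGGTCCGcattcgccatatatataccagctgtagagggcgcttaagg
H4c18 (chr13:21832198-21832257, minus strand): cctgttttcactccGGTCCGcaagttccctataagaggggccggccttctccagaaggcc

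Their signal values ran from 7.01 at H4c3 through 6.09 at H4c4, 5.32 at H4c9 and 4.31 at H4c17 to 3.70 at H4c6, and H4c18 had no peak, so that the same core at the same place stood at members of different strength. The sequence of H4c18 differs little from that of H4c17, both being among the copied promoters. The TATA box letters TATAAA were matched in 35 of 67 member promoters (52.2%), beside 12.6% of all coding promoters. Before the start alone they were matched in 29 (43.3%), beside 11.6% of all coding promoters. The members' windows held a median of 11 CG dinucleotides, beside 13 over all coding promoters.

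Genes for other histones and for the handling of histones were counted in 3 lists, each gene once by its RefSeq symbol. Of 9 histone genes that are expressed outside S phase as well, 7 had a peak (median strongest signal value 7.28). The strongest were H2az2 (9.12), which encodes a form of H2A.Z, Macroh2a1 (7.96), which encodes a large H2A variant, and H3f3a (7.35), which encodes H3.3. Cenpa, H2ax, H2az1 and H2aj had a peak, and Macroh2a2 and H3f3b had none.

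Of 23 genes that regulate histone gene transcription or transcript processing, 17 had a peak (73.9%, median 5.29). The strongest were Pou2f1 (10.4), which encodes the octamer-binding factor Oct-1, Casp8ap2 (10.4), which encodes the histone locus body protein FLASH, and Cpsf2 (9.92), a subunit of the 3′ end cleavage complex. Npat had 7.19, Slbp 5.78 and Hinfp 5.29. Zfp473, Lsm10, Sympk, Cstf2, Srrt, Upf1, E2f4, Nfya, Nfyb, Cdk2 and Ccne1 also had a peak, and Lsm11, Cpsf3, Eri1, E2f1, Nfyc and Ccne2 had none. Of 16 genes for histone chaperones and carriers, 10 had a peak (62.5%, median 6.30), led by Atrx (8.88), Hjurp (7.74) and Ssrp1 (7.25). Asf1a, Chaf1b, Daxx, Hat1, Rbbp4, Supt16 and Nap1l4 also had one, and Asf1b, Chaf1a, Nasp, Hira, Ipo4 and Nap1l1 had none.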

How the data were processed

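The authors immunoprecipitated H3K27ac from sorted cells by ChIPmentation, per the labels' protocols; BWA, MACS2 and the mm10 build are named in the submitters' processing notes, with no parameters. The deposited narrowPeak list gives for each peak a signal value (a ratio of enrichment over background), a −log10 p-value and a −log10 q-value, and a deposited integer score that was not used further. Its deposited name calls it the optimal overlap set of H3K27ac over input; how the 4 libraries were combined is not given in the sources used here. GRCm38.p6 gene positions and promoters came from RefSeq tables.

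A gene had a peak if one overlapped 1 kb either side of an end, and its strongest signal value was kept. Overlap and summit counts were made in Python 3.11.15 with pandas 2.3.3, numpy 2.4.6 and scipy 1.17.1, and plots with matplotlib 3.10.9; the overlap step was checked on simulated intervals. Strand came from the promoter table, which lacks H3c7, H2bc4, H3c1, H2bc21 and H4c14. No test was run, since the list holds no replicates and no second group.

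Members and lists were chosen with earlier results of these data known. Members named with values were those at the 10 strongest distinct peaks, the highest and lowest of each class and cluster, those on either side of a q-value of 0.05, and the 3 strongest genes of each list; other named members were chosen after their values were seen. Protein sequences were not used here.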

Additional observations from a re-analysis of the deposited data

How the results depend on the processing

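The counts of members, classes, clusters, distinct peaks and lists with a peak, the share, the overall median and 6 motif counts were recomputed under other windows, thresholds and member sets, giving 155 values of 22 results. Of these, 145 stayed within 1.5 times the reported count or median or, for the share, within its Wilson interval. Class and block medians, start coverage, summit places and pairs were not part of this. Windows of 500 bp and 2.5 kb gave 56 and 62 members with a peak, and a summit within 1 kb gave 56. The members gained at 2.5 kb were H2ac19, H2ac23 and H2bc23, which are among the copied promoters, and H1f6. The distinct peaks numbered 49 at 2.5 kb as at 1 kb, so these members reached only peaks already counted at other members. H1f6 reached that of H4c3. By this wider count H1f0 was not the only member outside the replication-dependent set with a peak, though H1f6 had none of its own. With peaks at a −log10 q of at least 5, or at a signal value of at least 4, the share of members was 62.0%, the distinct peaks numbered 30 and the H2A genes with a peak 9, under either threshold. At the former, 44 members, 8 of the H3 genes and 33 of the chromosome 13 members still had a peak. Without the replacement and germ-line members the share was 89.1% and 1 member elsewhere had a peak. With current symbols only, an alternative chosen after seeing the data, chromosome 11 held 0 members with a peak and the other chromosomes outside the clusters 1, because the older symbols bring in the genes there. Without the members with copied promoters, also chosen after seeing the data, 54 of 61 had a peak. The list holds no value per library, so no library could be left out and no pairing of libraries used. A weak peak or its absence therefore has no measured error, and the list cannot show whether any of these peaks depends on Mll3/4.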
